A study of Homo sapiens with 12 samples.

Results

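Antagonists, ligands and targets of the WNT pathway, 10 genes in all, were followed through 12 RNA sequencing libraries labelled as PANC-1, a human pancreatic ductal carcinoma line. They are the antagonists DKK1, DKK3 and SFRP1, the ligands WNT5A, WNT7A, WNT7B and WNT10A, the pathway targets AXIN2 and LEF1, and the transcription factor TCF7, and they are 10 of the 23284 gene symbols listed. DKK1 was selected on its irradiation response, which differed between the populations at 48 h, so its values in comparisons that use the 48 h libraries are given as a description with no test. The other 9 were named as genes to set beside it.

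All cells carried a retroviral fusion of ZsGreen, a green fluorescent protein, with the degron of ornithine decarboxylase, which accumulates where proteasome activity is low. Degron (++) cells were the 50% most fluorescent of a population that repeated sorting had enriched for fluorescence. Degron (−) cells were the infected line, in which few cells are fluorescent. Each population had 2 libraries at 0 Gy 48 h, 2 at 4 Gy 30 h and 2 at 4 Gy 48 h of gamma irradiation, and there was no unirradiated group at 30 h. Neither the start of the hours nor whether the 2 libraries of a group came from separate cultures is given in the labels, so p-values measure the spread between these libraries, which may be technical. The 6 libraries called degron (−) here are ZsGreen-negative in their titles but d+ in their descriptions.

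WNT proteins are secreted ligands that bind Frizzled receptors with LRP5, LRP6, ROR or RYK as co-receptors. In the canonical branch, binding stops the destruction complex from degrading beta-catenin, which then acts with TCF/LEF factors on targets such as AXIN2, itself an inhibitor of the pathway. DKK1 blocks the co-receptors LRP5 and LRP6, SFRP1 binds WNT ligands outside the cell, and beta-catenin is itself removed by the proteasome.

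The start of DKK1 is shown because TCF/LEF factors recognise the core motif CTTTGA and DKK1 is known as a target of the pathway that it inhibits. Sequences are the 250 bases before the RefSeq start of the gene in GRCh38.p14, 5′ to 3′ on the strand of the gene, with CTTTGA on either strand in capitals (TCAAAG is the same motif on the opposite strand). The starts of TCF7 and WNT5A are shown beside it as a transcription factor and a ligand that differed between the populations in opposite directions. The lines give DKK1 at chr10:52314031-52314280 on the plus strand, TCF7 at chr5:134115363-134115612 on the plus strand and WNT5A at chr3:55487307-55487556 on the minus strand, the latter 2 being each 1 of 2 windows of the gene.
DKK1: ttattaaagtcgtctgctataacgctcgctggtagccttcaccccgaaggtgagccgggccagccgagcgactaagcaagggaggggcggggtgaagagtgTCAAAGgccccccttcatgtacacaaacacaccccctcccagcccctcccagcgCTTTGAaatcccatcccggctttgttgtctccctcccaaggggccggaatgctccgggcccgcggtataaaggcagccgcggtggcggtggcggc
TCF7: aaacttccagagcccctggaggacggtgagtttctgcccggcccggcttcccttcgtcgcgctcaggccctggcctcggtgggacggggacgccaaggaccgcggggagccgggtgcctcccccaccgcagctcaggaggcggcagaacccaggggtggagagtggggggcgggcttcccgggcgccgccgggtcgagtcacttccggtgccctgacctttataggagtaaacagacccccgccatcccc
WNT5A: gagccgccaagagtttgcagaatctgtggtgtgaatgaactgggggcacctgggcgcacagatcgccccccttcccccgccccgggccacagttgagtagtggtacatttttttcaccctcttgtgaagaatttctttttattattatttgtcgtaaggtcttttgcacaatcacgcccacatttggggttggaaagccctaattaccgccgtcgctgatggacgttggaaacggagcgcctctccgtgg
The DKK1 window held the motif 2 times, at bases −149 and −95 from the start. Of the 8 windows found for 6 of the 10 genes, the other 7 held none. Across all 35116 windows, 11.2% held it at least once and 0.977% held it 2 or more times. In the 99 windows of the WNT pathway list used below, the shares were 5.05% and 2.02%. No window was found for DKK3, SFRP1, WNT7B and AXIN2. A match describes these letters and says nothing about binding.

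Levels are FPKM, fragments scaled to exon length and to the number of mapped reads, as deposited. The sum of FPKM ran from 829654 to 916877 in degron (++) and from 707273 to 763064 in degron (−) libraries. The depth is unknown, since the files hold no counts. All 5 ductal epithelial markers were at a mean FPKM of at least 1 in both populations, with a sum of 7119 to 8302 in degron (++) and of 4220 to 5124 in degron (−). Of 8 fibroblast markers, 1 reached that level in degron (++) and 2 in degron (−), with sums of 14.5 to 25.5 and 37.2 to 53.9, and COL1A2 and DCN were at 0 in all 12 libraries. Of 5 leukocyte markers, 2 and 1 reached it, with sums of 4.495 to 6.37 and 124.5 to 165, and CD3E was at 0 in all 12. The 3 endothelial markers stayed under 1. The 3 genes of 9p21 that PANC-1 is known to lack, CDKN2A, CDKN2B and MTAP, summed to 129 to 144 in degron (++) and to 15.4 to 28.3 in degron (−). Those levels, most of all in degron (++), go against the labelled line, and in every population difference that follows the population and the identity of its cells cannot be told apart. The part of the other marker values was not tested.

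DKK1 was the most abundant of the 10 genes in both populations, and every degron (−) library held more of it than every degron (++) library. In degron (++) cells DKK1 stood at 45.95 and 46.4 FPKM at 0 Gy 48 h, at 63.6 and 63.5 at 4 Gy 30 h, and at 77.7 and 78.2 at 4 Gy 48 h. In degron (−) cells it stood at 261 and 252, at 278 and 283, and at 291 and 278 in the same order. The 3 degron (++) groups were separate from each other, and the 2 libraries of each nearly coincided. In such bulk samples, fewer cells that make a transcript and less of it per cell cannot be told apart.

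Ordered by level, the DKK1 means were 46.2 ± 0.313, 63.6 ± 0.105 and 77.9 ± 0.383 FPKM in degron (++) at 0 Gy 48 h, 4 Gy 30 h and 4 Gy 48 h (SD, n = 2 each), then 256 ± 6.25, 281 ± 3.48 and 285 ± 8.72 in degron (−) in the same order of conditions. Only the top pair of neighbours, degron (−) at 4 Gy 30 h and at 4 Gy 48 h, overlapped in their libraries. The DKK1 mean at 4 Gy was 1.69 times that at 0 Gy in degron (++) cells and 1.11 times in degron (−) cells at 48 h. From 30 h to 48 h after 4 Gy the ratio of means was 1.23 in degron (++) and 1.01 in degron (−). With the smaller response of the degron (−) cells, the ratio of degron (−) to degron (++) was 5.56 at 0 Gy 48 h, 4.42 at 4 Gy 30 h and 3.65 at 4 Gy 48 h.

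On the scale of log2(FPKM + 1), used for all tests and here described only, the irradiation change of DKK1 was 0.74 in degron (++) and 0.15 in degron (−) cells (SE 0.032 each). Their difference, the value on which DKK1 was chosen, was 0.59 (SE 0.045). The 30 h libraries had no part in that choice. There DKK1 was lower in degron (++) by a log2 fold change of −2.13 (SE 0.032, limma with Benjamini-Hochberg adjustment over 12946 genes, adjusted p = 1.07e-10). The SE, however, takes its spread from all 12 libraries, so the 48 h libraries that chose DKK1 enter it and the p-value is not independent of the choice. Under the alternatives that leave out no single library, the limma adjusted p was at most 2.2e-06.

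**Figure D1:**
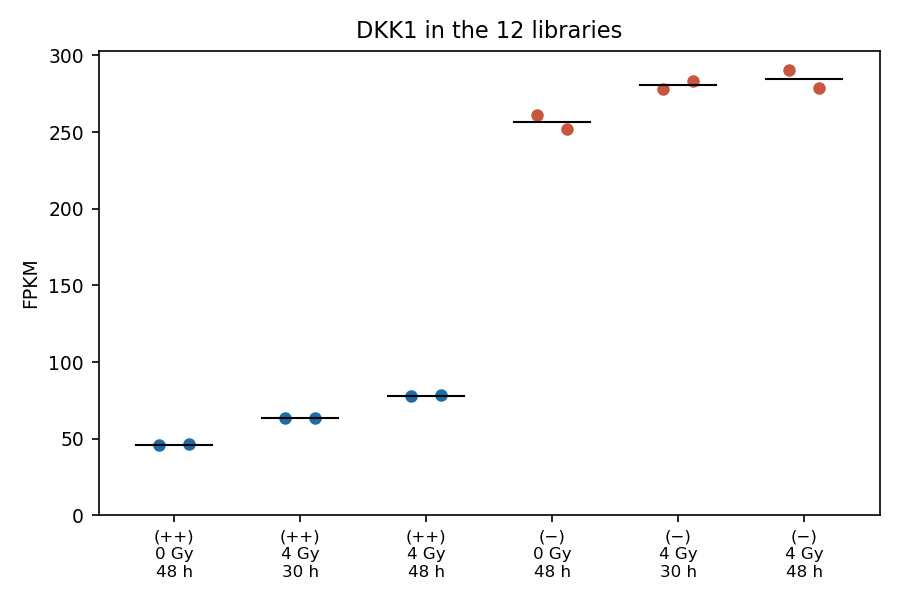
DKK1 level (FPKM, vertical axis from 0) in each of the 6 groups; points are the 2 libraries of a group, lines their mean, blue degron (++) and red degron (−). Degron (++) libraries lie between 45.95 and 78.2 FPKM and degron (−) libraries between 252 and 291.

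The other antagonists had the same direction between the populations as DKK1. DKK3, a relative of DKK1 that is often silenced in tumours, stood at 1.67 and 1.77 FPKM in degron (++) at 0 Gy 48 h, at 1.38 and 1.46 at 4 Gy 30 h, and at 1.90 and 2.27 at 4 Gy 48 h. In degron (−) cells DKK3 stood at 46.3 and 45.5, at 51.9 and 48.5, and at 44.3 and 45.1 in the same order. All degron (++) libraries were far below all degron (−) libraries. The degron (−) mean of DKK3 was 26.7, 35.3 and 21.4 times the degron (++) mean in the 3 conditions. Its log2 fold changes were −4.11, −4.40 and −3.89 (SE 0.064 each, adjusted p from 8.64e-11 to 2.12e-10).

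SFRP1 was listed at 0 in 5 of the 6 degron (++) libraries and at 0.023 FPKM in the remaining 1, which was at 4 Gy 30 h. In degron (−) cells SFRP1 stood at 17.99 and 20.9 FPKM at 0 Gy 48 h, at 24.1 and 22.1 at 4 Gy 30 h, and at 24.3 and 21.5 at 4 Gy 48 h. SFRP1 passed the filter on low values through degron (−) alone, so its levels are given with no test, and no fold is given against a level of 0.

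Of the ligands, WNT5A and WNT7A were higher in degron (++) cells and WNT7B was lower. WNT5A, which signals mainly outside the beta-catenin branch, stood at 9.09 and 8.78 FPKM in degron (++) at 0 Gy 48 h, at 8.75 and 8.22 at 4 Gy 30 h, and at 9.13 and 8.64 at 4 Gy 48 h. In degron (−) cells WNT5A stood at 0.868 and 0.906, at 0.823 and 0.773, and at 1.43 and 1.51. The populations did not overlap, and the degron (−) libraries at 4 Gy 48 h stood above the other 4 of that population. The ratio of the degron (++) to the degron (−) mean of WNT5A was 10.1, 10.6 and 6.05 in the 3 conditions. The log2 fold changes were 2.40, 2.40 and 2.002 (SE 0.062 each, adjusted p = 2.68e-09, 2.32e-09 and 9.07e-09).

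WNT7A, a ligand of epithelia, stood at 4.48 and 5.51 FPKM in degron (++) at 0 Gy 48 h, at 6.47 and 6.76 at 4 Gy 30 h, and at 5.29 and 6.88 at 4 Gy 48 h. In degron (−) cells WNT7A stood at 1.53 and 1.19, at 0.996 and 1.33, and at 2.31 and 1.22. The populations did not overlap. The log2 fold changes were 1.34, 1.82 and 1.38 (SE 0.193 each, adjusted p = 1.71e-04, 2e-05 and 1.53e-04), with ratios of means of 3.67, 5.70 and 3.45.

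WNT7B, the close relative of WNT7A, had the opposite direction. It stood at 13.8 and 13.6 FPKM in degron (++) at 0 Gy 48 h, at 13.6 and 15.0 at 4 Gy 30 h, and at 13.4 and 13.4 at 4 Gy 48 h. The degron (−) libraries held 37.9 and 36.6, 37.9 and 38.8, and 36.6 and 35.7. WNT7B kept nearly one level within each population, and the degron (−) mean was 2.72, 2.68 and 2.70 times the degron (++) mean. The log2 fold changes were −1.38, −1.36 and −1.37 (SE 0.048 each, adjusted p = 1.39e-08, 1.29e-08 and 1.83e-08).

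WNT10A, a canonical ligand, was the only one of the 4 ligands whose populations overlapped. In degron (++) cells WNT10A stood at 1.91 and 2.198 FPKM at 0 Gy 48 h, at 2.18 and 2.41 at 4 Gy 30 h, and at 2.82 and 2.75 at 4 Gy 48 h. In degron (−) cells it stood at 2.96 and 2.64, at 2.66 and 2.84, and at 3.28 and 2.30. It was lower in degron (++) at 0 Gy 48 h, with a log2 fold change of −0.32 (SE 0.119, adjusted p = 0.0352). Without the first degron (++) library of that condition the adjusted p was 0.167, without the first degron (−) library 0.156 and without the second 0.0502. It was 0.0544 with no filter, and with quantile scaling the difference was −0.13 (adjusted p = 0.35). At 4 Gy the differences were −0.19 at 30 h (adjusted p = 0.175) and 0.01 at 48 h (adjusted p = 0.938), and the sign changed with the scaling at both times.

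TCF7, the TCF/LEF factor also known as TCF1, was lower in degron (++) cells. It stood at 1.38 and 1.85 FPKM in degron (++) at 0 Gy 48 h, at 1.18 and 1.35 at 4 Gy 30 h, and at 1.46 and 1.70 at 4 Gy 48 h. The degron (−) libraries held 12.8 and 12.4, 13.2 and 13.1, and 11.5 and 11.5. The populations were apart by 7.79, 10.4 and 7.30 times in their means. The log2 fold changes of TCF7 were −2.38, −2.64 and −2.28 (SE 0.090 each, adjusted p = 2.4e-08, 1.09e-08 and 3.73e-08).

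AXIN2, the most used readout of beta-catenin signalling, and LEF1 were near 0 everywhere. AXIN2 was listed at 0 in 5 of 6 degron (++) libraries and at 0.020 FPKM in the remaining 1, and it ran from 0 to 0.076 in degron (−). LEF1 ran from 0 to 0.206 in degron (++) and from 0 to 0.137 in degron (−). Neither reached FPKM of 1 in 2 libraries, so 8 of the 10 genes passed the filter and these had no test.

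**Figure D2:**
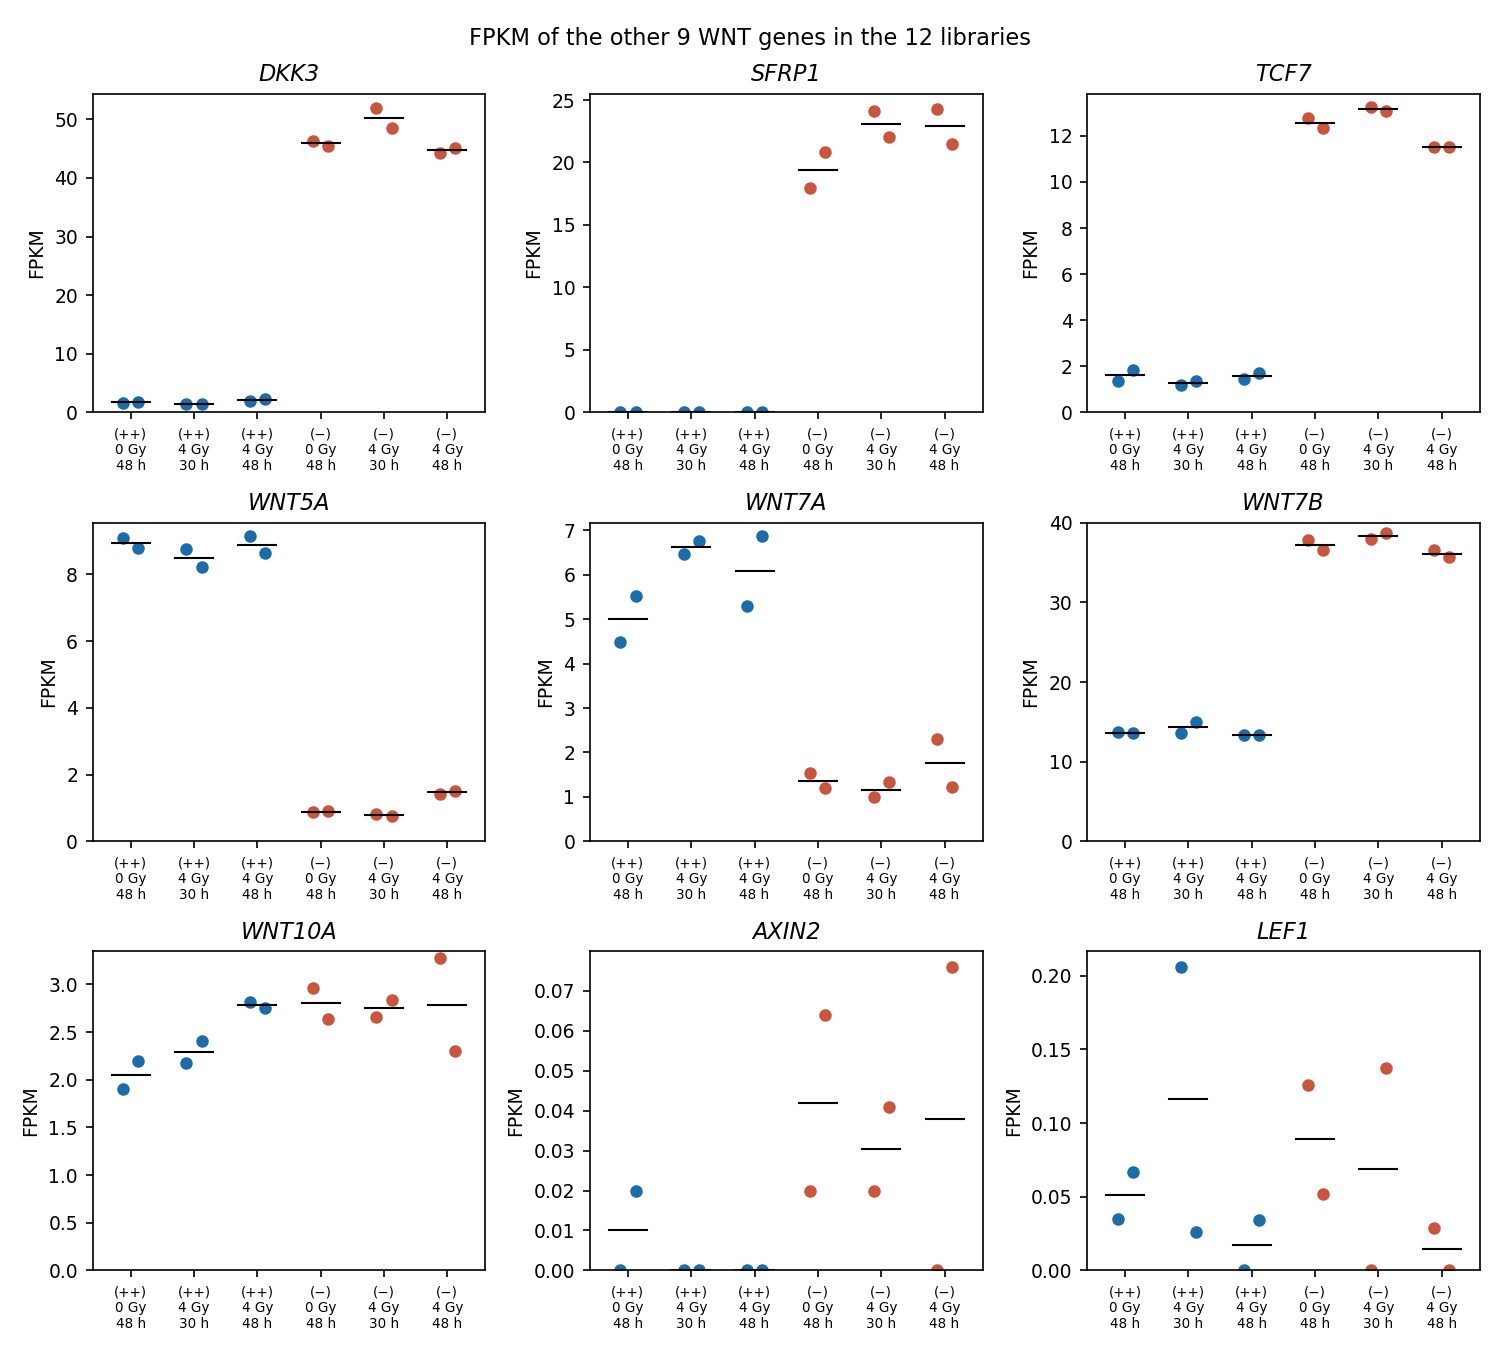
Level (FPKM, vertical axes from 0 and different for each gene) of the other 9 genes in the 6 groups; points are libraries, lines the mean of the 2, blue degron (++) and red degron (−). The populations are apart for DKK3, SFRP1, TCF7, WNT5A, WNT7A and WNT7B and overlap for WNT10A, AXIN2 and LEF1.

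Between the populations at 0 Gy 48 h, 6 of the 6 genes tested that had FPKM of at least 1 in 2 libraries of each population passed the threshold, 2 higher and 4 lower in degron (++), where 77.7% of all 12946 genes passed. At 4 Gy 30 h, with DKK1 tested, 6 of 7 passed, 2 higher and 4 lower, beside 79.1% of all genes. At 4 Gy 48 h it was 5 of 6, 2 higher and 3 lower, beside 76.7%. Over the 11211 genes that met the filter in each population like these, 76.3%, 77.9% and 75.2% passed. WNT5A met it in degron (−) only through its 2 libraries at 4 Gy 48 h, the group of that population where it was high. The shares are near the background, so that the calls themselves do not set the genes apart. The median log2 fold change of these genes was −0.85, −1.36 and −0.68, against 0.01, 0.02 and 0.02 over the 11211. The middle value counts DKK1 and the other 2 do not, so it cannot be compared with them. The genes were chosen with earlier results of these data known, so the medians are a description only. Of the calls over all genes, 48.3%, 48.5% and 48.3% were higher in degron (++), and 35.9%, 33.3% and 31.7% after rescaling each library to a common sum (TPM), which moved the median of all genes to −0.21, −0.27 and −0.25. The directions of DKK1, DKK3, TCF7, WNT5A, WNT7A and WNT7B were the same under that scaling.

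**Figure D3:**
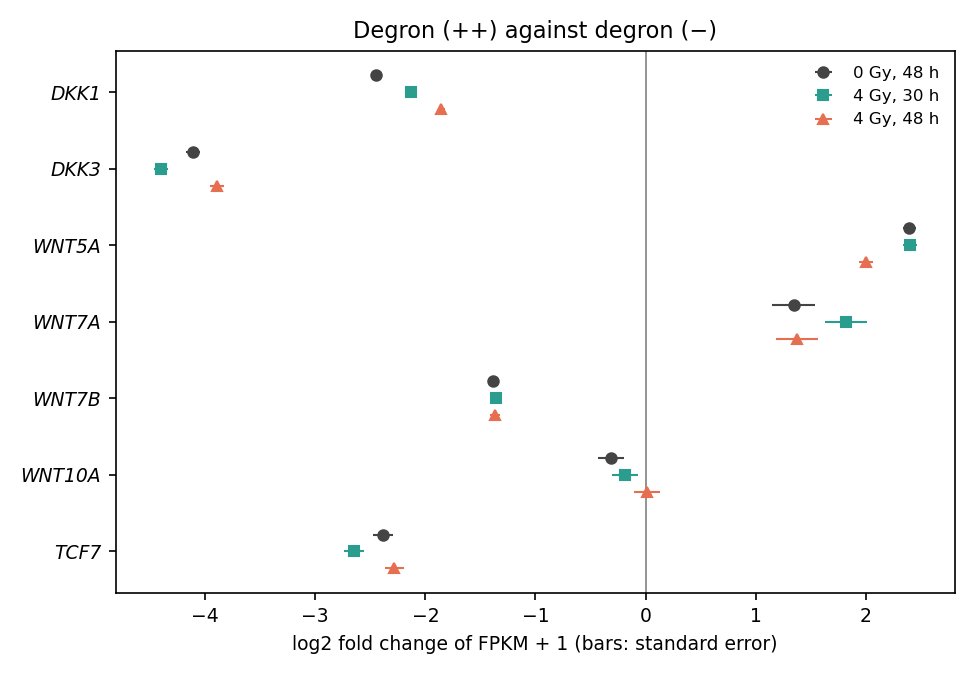
Log2 fold change of FPKM + 1, degron (++) against degron (−) (horizontal axis, bars the standard error), for 7 genes in the 3 conditions; SFRP1, listed at 0 in degron (++), is left out, and DKK1 was tested only at 4 Gy 30 h. WNT5A and WNT7A lie to the right of 0 in all conditions, WNT10A near 0 and the others to the left, and the DKK1 points run from −2.45 at 0 Gy to −1.85 at 4 Gy 48 h.

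On the scale of log2(FPKM + 1), the irradiation response at 48 h was smaller for the other genes tested than the DKK1 change in degron (++). This is the comparison that chose DKK1, and the scale understates changes of low genes. As ratios of means, WNT5A in degron (−) was at 1.66 and WNT10A in degron (++) at 1.36, beside 1.69 for DKK1 in degron (++). In degron (++) cells SFRP1 was at 0 in all 4 libraries compared. None of the other 6 genes tested passed limma's adjusted threshold, and 2, DKK3 and WNT10A, had an unadjusted p under 0.05, while 1.82% of all genes passed. The DKK3 change was 0.18 on the log2 scale (SE 0.064, adjusted p = 0.19) and the WNT10A change 0.31 (SE 0.119, adjusted p = 0.224). The DKK1 change of 0.74 stood outside the range of the 6, from −0.03 to 0.31, which its selection on this contrast fixes in part.

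In degron (−) cells 1 of the 7 genes passed, WNT5A, where 4.73% of all genes did. In this population WNT5A reached FPKM of 1 only in the 2 libraries at 4 Gy 48 h, the group where it was high. Among genes required to meet the filter in each population, its call therefore does not test a rise. WNT5A rose from a mean of 0.887 ± 0.027 to 1.47 ± 0.058 FPKM (SD, n = 2 each), a ratio of 1.66 and a log2 change of 0.39 (SE 0.062, adjusted p = 0.0124). Without 1 of 3 libraries the call was lost: the adjusted p was 0.0918 without the second library at 4 Gy 48 h, 0.0536 without the first at 0 Gy and 0.0567 without the second at 0 Gy. It was 0.177 where only the 4 libraries compared were fitted. The change of WNT5A in degron (++) cells was −0.01 (SE 0.062, adjusted p = 0.988). The summed FPKM of the 9p21 genes in degron (−) moved with WNT5A: it was 24.5 and 20.4 at 0 Gy 48 h, 16.1 and 15.4 at 4 Gy 30 h, and 28.3 and 26.8 at 4 Gy 48 h. The part of the 9p21 level in the change of WNT5A was not tested.

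Whether irradiation acted differently in the populations was tested as an interaction. Without SFRP1, none of the 6 genes tested passed limma's adjusted threshold, 2 (DKK3 and WNT5A) had an unadjusted p under 0.05, and 10 of all genes, 0.0772%, passed. The interaction of WNT5A was −0.39 (SE 0.088, adjusted p = 0.129) and that of DKK3 0.22 (SE 0.090, adjusted p = 0.343), opposite in sign. That of WNT10A, 0.33, was the highest of the 6 and had the sign of the DKK1 difference. As ratios of means at 4 Gy to 0 Gy, WNT5A was at 0.995 in degron (++) and 1.66 in degron (−). DKK1 was at 1.69 and 1.11. The interaction of WNT7B was 0.01 (SE 0.067, adjusted p = 0.947) and that of TCF7 0.10 (SE 0.127, adjusted p = 0.769). WNT7A had the widest error, 0.03 (SE 0.273), which leaves the comparison with DKK1 at 0.59 imprecise.

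**Figure D4:**
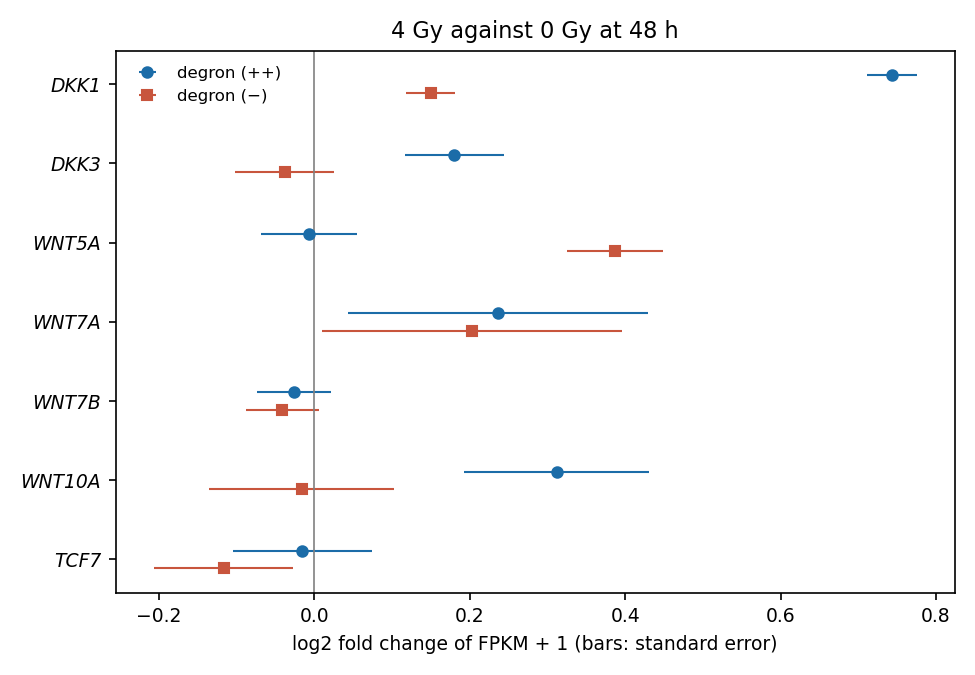
Log2 change of FPKM + 1 at 4 Gy against 0 Gy at 48 h (horizontal axis, bars the standard error) for 7 genes in degron (++) (blue circles) and degron (−) (red squares) cells; SFRP1 is left out, being listed at 0 in degron (++). DKK1 is at 0.74 and 0.15, and WNT5A is at 0.39 in degron (−) and near 0 in degron (++).

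From 30 h to 48 h after 4 Gy, 1 of the 6 genes tested besides SFRP1 passed in degron (++), DKK3, beside 1.21% of all genes. DKK3 rose from 1.42 ± 0.054 to 2.09 ± 0.260 FPKM (SD, n = 2 each), a log2 change of 0.35 (SE 0.064, adjusted p = 0.0429). The adjusted p was between 0.0536 and 0.169 when any 1 of the 12 libraries was left out. In degron (−) cells the change of DKK3 was −0.16 (adjusted p = 0.172).

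In degron (−) cells 1 of the 7 passed, WNT5A, beside 7.18% of all genes. Here too WNT5A reached FPKM of 1 in degron (−) only in the 2 libraries at 4 Gy 48 h, where it was high. Among genes required to meet the filter in each population, this call does not test a rise either. WNT5A rose from 0.798 ± 0.035 to 1.47 ± 0.058 FPKM, a ratio of 1.84 and a log2 change of 0.46 (SE 0.062, adjusted p = 0.00353). This comparison shares its 4 Gy 48 h libraries with the irradiation comparison. The call held when any 1 library was left out (adjusted p from 0.00627 to 0.038), and the adjusted p was 0.0979 with only the 4 libraries compared. In degron (++) cells WNT5A changed by 0.06 (adjusted p = 0.707). Over the same hours in degron (−), the ratios of means were 1.72, 2.51 and 1.62 for CDKN2A, CDKN2B and MTAP. They were 1.83 for KRT7, 1.58 for EPCAM and 1.18, 1.15 and 1.09 for KRT8, KRT18 and KRT19. The part of these rises in the change of WNT5A was not tested.

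The 10 genes were set within a list of 104 genes of the pathway in 9 roles. Of these, 34 stayed under FPKM of 1 in all 12 libraries. At 0 Gy 48 h, 63 of the 69 list genes tested differed between the populations, beside 77.7% of all genes, but 18 of the tested genes did not meet the filter in each population on its own. Of the 51 that did, besides DKK1, 45 differed, 22 higher and 23 lower in degron (++), with a median log2 fold change of −0.17 against 0.01 over all such genes. In all 3 conditions 20 were higher and 21 lower of 51, and over all such genes 3843 were higher and 3619 lower of 11211. The counts by role that follow are of genes past the threshold in the same direction in all 3 conditions, among these 51.

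Among the ligands 2 were higher and 1 lower in all 3 conditions, of 6. WNT5B, a relative of WNT5A, ran from 0 to 0.293 FPKM in degron (++) and from 40.9 to 45.0 in degron (−). The pair WNT5A and WNT5B therefore stood in opposite directions, like the pair WNT7A and WNT7B. WLS, which carries WNT proteins to the cell surface, ran from 0.603 to 0.981 FPKM in degron (++) and from 35.3 to 46.7 in degron (−), where its means were 56.5, 50.5 and 54.2 times those in degron (++). WLS, like WNT5B, passed the filter through degron (−) alone and has no test here. PORCN, which attaches the lipid that WNT proteins need, was higher in degron (++), by 0.52, 0.85 and 0.38 on the log2 scale, the last being 0.13 (adjusted p = 0.183) with TPM scaling.

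Of the antagonists other than DKK1, DKK3 alone met the filter in each population. FRZB and SOSTDC1 were low in level and higher in degron (++) libraries: FRZB, a secreted Frizzled-related protein like SFRP1, ran from 1.15 to 2.21 FPKM in degron (++) and from 0.060 to 0.305 in degron (−), and SOSTDC1 ran from 0.929 to 2.84 and from 0 to 0.103. The co-receptor LRP5, to which DKK1 binds, ran from 42.2 to 50.9 FPKM in degron (++) and from 61.6 to 71.9 in degron (−), with log2 fold changes of −0.50, −0.57 and −0.52. LRP6, the other co-receptor bound by DKK1 and named after its values were seen, ran from 7.42 to 8.31 and from 5.04 to 5.65. LRP5 was thus lower and LRP6 higher in every degron (++) library.

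Receptors and co-receptors were split, 6 higher and 6 lower of 13. The co-receptor PTK7 was lower by −2.49, −2.64 and −2.48, and FZD7 by −1.74, −1.30 and −1.34. LGR4, the R-spondin receptor, was lower by −2.01, −2.38 and −2.22. ROR2, a receptor of WNT5A named after its values were seen, was listed at 0 in all 6 degron (++) libraries. It ran from 2.62 to 4.34 FPKM in degron (−), so that WNT5A was the higher in one population and ROR2 in the other. ROR1, also named after its values were seen, ran from 6.65 to 8.65 in degron (++) and from 6.38 to 7.88 in degron (−), with overlap. RYK ran from 25.7 to 27.6 and from 49.7 to 55.2.

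In the destruction complex 4 were higher and 6 lower of 11. CTNNB1, which encodes beta-catenin, ran from 78.7 to 84.6 FPKM in degron (++) and from 61.2 to 67.3 in degron (−), with log2 fold changes of 0.41, 0.34 and 0.26. With TPM scaling those of CTNNB1 were 0.20, 0.06 and −0.01.

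Among feedback inhibitors and targets 0 were higher and 1, MYC, was lower of 4. CCND1, the cyclin D1 gene, was near 101 FPKM in both populations, with differences of −0.02, −0.07 and 0.05 (adjusted p from 0.23 to 0.782), and the sign at 4 Gy 48 h changed with the scaling. Under the alternatives that leave out no single library, the CCND1 differences reached −0.22, −0.35 and −0.22. The lowest limma adjusted p among those was 0.00598, 3.46e-04 and 0.00741, so the absence of a CCND1 call depends on the processing. MYC ran from 33.0 to 47.4 FPKM in degron (++) and from 50.2 to 60.1 in degron (−), lower by −0.78, −0.17 and −0.36 (adjusted p = 4.43e-06, 0.0413 and 7.96e-04), the middle call of MYC being kept in 5 of 12 fits without 1 library (adjusted p up to 0.26) and in 5 of 8 other alternatives. NKD2, a feedback inhibitor, ran from 0.103 to 0.501 FPKM in degron (++) and from 3.92 to 4.66 in degron (−). RNF43 and TBX3 of the same role are named after their values were seen. RNF43 went the other way, from 2.59 to 3.50 and from 0.230 to 0.563, and TBX3 ran from 0 to 0.019 and from 1.71 to 2.41. NKD2, RNF43 and TBX3 did not meet the filter in each population.

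Among TCF/LEF factors and co-factors 3 were higher and 5 lower of 9. TCF7L1 was, like TCF7, lower in degron (++), where it ran from 0 to 0.098 FPKM against 24.6 to 33.7 in degron (−). In the planar polarity branch 4 were higher and 0 lower of 5, among them DAAM1 by 1.47, 1.68 and 1.29, CELSR1 by 1.05, 0.84 and 0.79 and VANGL1 by 0.54, 0.59 and 0.41.

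**Figure D5:**
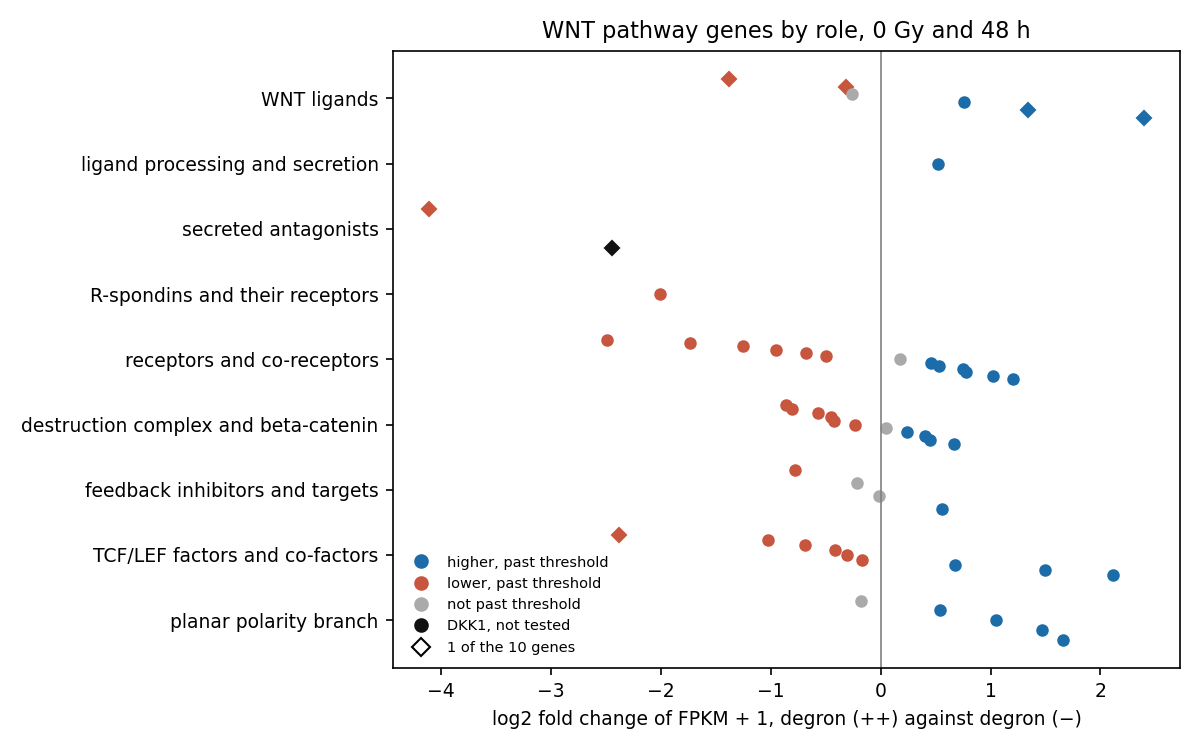
Log2 fold change of FPKM + 1, degron (++) against degron (−) at 0 Gy 48 h (horizontal axis), for the tested genes of the WNT pathway list by role (rows); diamonds mark those of the 10 genes that are plotted, colours give the call, and 18 tested genes that did not meet the filter in each population are left out. Receptors, the destruction complex and TCF/LEF factors hold genes on both sides of 0, and 4 of 5 planar polarity genes are higher.

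After irradiation, 1 of 69 list genes passed in degron (++) cells (1.82% of all genes did), MYC, by 0.33 (SE 0.066, adjusted p = 0.049), a call lost when any 1 library was left out (adjusted p from 0.0517 to 0.25). In degron (−) cells 6 of the 69 passed (4.73% of all genes did). The 69 include 18 genes that did not meet the filter in each population, some of them at 0 in degron (++), which could show no response there. Of the 51 that did meet it, 1 passed in degron (++) and 5 in degron (−), beside 1.91% and 5.01% of all such genes. WNT5A, among the 5, met the filter in degron (−) only through the 4 Gy 48 h group where it was high, so its call there does not test a rise. The 6 were, besides WNT5A, DAAM1 (0.31), PORCN (0.31), TCF7L1 (−0.38), FZD7 (−0.30) and TLE4 (0.52), the last, a TCF co-repressor, being named after its values were seen. Of these 6, WNT5A, DAAM1, PORCN and TLE4 were the higher and TCF7L1 and FZD7 the lower in degron (++), in comparisons that share these degron (−) libraries. Together with the 9p21 sum given above, KRT7 went from 199 and 173 FPKM at 0 Gy to 233 and 273 at 4 Gy 48 h in degron (−), and EPCAM from 37.4 and 37.6 to 44.8 and 52.8. Their part in the 6 changes was not tested. None was left without the second library at 4 Gy or without the first at 0 Gy 48 h, 3 without either of the other 2 libraries compared, and none with only those 4 fitted. None of the 51, nor of the 69, passed for the interaction by limma, beside 0.0892% of all genes that met the filter in each population. Of the 69, 10 had an unadjusted p under 0.05. From 30 h to 48 h, DKK3 alone passed in degron (++), beside 1.21% of all genes. Of the 51 that met the filter in each population, 1 passed in degron (++) and 4 in degron (−), beside 1.34% and 7.6% of such genes. WNT5A is among the 4, with the same limit. In degron (−), 7 of the 69 passed, beside 7.18%: WNT5A, DAAM1 (0.57), PORCN (0.31), TCF7L1 (−0.32) and, named after their values were seen, TLE4 (0.53), FZD9 (−0.33) and WNT11 (−0.45). The 4 that rose were higher in degron (++) and the 3 that fell lower, in comparisons that share these libraries. Among the 7, WNT11 reached FPKM of 1 only in the 2 libraries at 30 h (1.15 and 1.65), the group where it was high, so its call does not test a fall. Without 1 of the 4 libraries compared, 3 and 4 passed (first and second at 30 h) and 3 and 2 (first and second at 48 h).

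The genes whose levels followed DKK1 most closely over the 12 libraries were C16orf5 (Pearson r = 0.996 of log2 values), CCS (0.995), MT2A (0.995), PROCR (0.995) and RBM4 (0.994), among 10114 genes compared. The 12 libraries fall into the 2 populations, a split shared by 1986 genes with r over 0.95, so these values describe that split first. Within the 6 degron (++) libraries r was from 0.902 to 0.971 for these 5 genes. Within the 6 degron (−) libraries it was from −0.278 for RBM4 to 0.81 for C16orf5. MT2A, a metallothionein, had a mean of 402 FPKM in degron (++) and 1203 in degron (−). Of the 10 genes, r with DKK1 over the 12 libraries was 0.982 for DKK3, 0.98 for SFRP1, 0.976 for WNT7B, 0.973 for TCF7 and 0.65 for WNT10A. It was −0.97 for WNT5A and −0.92 for WNT7A. These values restate the split of the populations, and no r within a population was computed for these genes.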

How the data were processed

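The 12 libraries were taken as 6 groups of 2 by the labels. Libraries were made with a stranded mRNA kit. FPKM per gene symbol and library were computed and deposited by the authors, and the submitters' processing notes name TopHat2 2.1.1, Bowtie2 2.2.8, SAMtools 0.1.18, Cuffdiff 2.2.1 and hg19. The annotation is not given in the sources used here. FPKM hold no counts, so depth is unknown, and steps between low values put relative depth at 0.862 to 1.17. A listed 0 was not taken as absence.

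From these FPKM, log2(FPKM + 1) was tested with limma 3.58.1 (lmFit, eBayes with trend; R 4.3.3) on genes that reached FPKM 1 in 2 or more libraries. Means of the 6 groups were fitted over all 12 libraries, and a Benjamini-Hochberg adjusted p under 0.05 was the threshold. Calls between populations were also counted over genes that met the filter in each population on its own, a choice made after seeing the data. A fold change on this scale understates changes of low genes. The fit was tested on simulated data. Alternatives were a pseudocount of 0.1, no filter, a filter at FPKM 5, quantile and TPM scaling, no trend, a replicate block, only the libraries compared, and leaving out each library.

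The 10 genes, the pathway list and the marker lists were chosen with earlier results of these data known. Named list genes are the 3 per role with the highest mean FPKM, those that moved by log2 2 or more in all 3 conditions, and, for likeness to DKK1, the 5 with the highest r among genes with a group mean of at least 5. Others are named as chosen after their values were seen. Replicate numbers did not pair libraries, with correlations of deviations from −0.0381 to 0.122 over 15 pairs of groups, 2 of them over 0.1. Promoter windows are those of RefSeq in GRCh38.p14 and no coordinates were converted. Python 3.11.15, numpy 2.4.6, pandas 2.3.3 and matplotlib 3.10.9 were also used.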

Additional observations from a re-analysis of the deposited data

Results flagged for a closer look

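A total of 4 values stood out because the same contrast went differently in the populations. The DKK1 irradiation change at 48 h was larger in degron (++) than in degron (−) by 0.59 on the log2 scale, which is the value DKK1 was chosen on. DKK3 at 4 Gy 48 h had both degron (++) libraries above those at 0 Gy, and both degron (−) libraries below, a difference of log2 changes of 0.22, which did not pass the interaction test (adjusted p = 0.343 by limma). From 30 h to 48 h after 4 Gy, DKK3 went up in both degron (++) libraries and down in both degron (−) libraries, a difference of 0.51. TCF7 did likewise, with a difference of 0.36, and neither of these 2 differences over time was tested. No search for a library far from the others was possible in groups of 2.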

How the results depend on the processing

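The populations' differences of DKK1 at 30 h and of DKK3, TCF7, WNT5A, WNT7A and WNT7B in all 3 conditions kept their direction and call under all alternatives tried. Signs changed only for small differences. With quantile scaling WNT10A at 4 Gy 30 h was 0.0204, PYGO2 there 9.16e-04 and CCND1 at 4 Gy 48 h −0.0722. With TPM scaling, at 4 Gy 48 h, WNT10A was −0.191, CCND1 −0.216 (adjusted p = 0.00741) and CTNNB1 −0.00557, and the DKK1 change from 30 h to 48 h in degron (−) was −0.0163. Leaving out 1 library gave −0.0363 to 0.00401 for CCND1 at 0 Gy and −0.0199 to 0.113 at 4 Gy 48 h, −0.176 to 0.199 for WNT10A at 4 Gy 48 h, −0.0927 to 0.0482 for PYGO2 at 4 Gy 30 h and −0.0117 to 0.0506 for that change of DKK1. The DKK1 irradiation difference between the populations was 0.51 with quantile and 0.54 with TPM scaling, as a description. Counts of the 10 genes passing fell from 1 to 0 with only the libraries compared for irradiation and for time in degron (−), and for time in degron (++) with no filter, quantile or TPM scaling, no trend, the replicate block and only the libraries compared. Leaving out 1 library gave 0 to 1 for irradiation in degron (−) and 0 to 0 for time in degron (++). For the pathway list, only the libraries compared gave 0 instead of 6 for irradiation in degron (−), 2 instead of 7 for time in degron (−), and 0 instead of 1 for irradiation and for time in degron (++). The latter 2 were also 0 with no filter, quantile or TPM scaling, no trend and the replicate block, and 0 and 2 with a pseudocount of 0.1. With a filter at FPKM 5, 41 list genes passed between the populations at 0 Gy 48 h, and 41 at 4 Gy 30 h, fewer genes being tested. Leaving out 1 library gave 0 to 7 and 2 to 6 list genes in degron (−) for irradiation and time, and 0 in degron (++) for both. The replicate block (adjusted p = 0.0729 for DKK3 over time) changed no other call of the 10 genes. Counting only genes that met the filter in each population, an alternative added after seeing the data, left 4 list genes for time in degron (−). Over all genes, counts under the alternatives planned that leave out no single library, and without 1 library, were 54 to 248 and 1 to 156 for irradiation in degron (++) beside 236, 48 to 710 and 116 to 500 in degron (−) beside 612, 35 to 162 and 15 to 128 for time in degron (++) beside 156, 298 to 1001 and 286 to 947 in degron (−) beside 930, and 2 to 35 and 0 to 18 for the interaction beside 10, where 30% were higher, 14.3% with quantile and 20% with TPM scaling. Of irradiation calls in degron (++) 78% were higher, and 59.6% with TPM scaling. Among time calls in degron (−) 83.7% were higher, and 72.5% with quantile scaling. Where the cause of a change is not stated, it was not tested. FPKM give no depth, so no counting error could be set beside the low levels of AXIN2, LEF1 and SFRP1.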
